A study of Mus musculus with 12 samples.

Results

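The 92 genes described here are the potassium channel genes of the mouse. They comprise every symbol beginning with *Kcn* in the deposited transcript table, with the transcripts of a symbol summed, apart from 2 genes that are not analysed here and RNAs named as overlapping or lying opposite a channel gene. They were 92 of 33641 symbols and held 345 of 105129 transcript rows. RNA was sequenced from the myocardium of 12 male C57BL/6 WT mice, with 3 mice in each of 4 groups and 1 library per mouse. All mice had surgery, either a sham operation or one producing a myocardial infarction (MI), and were about 10 weeks old at the first injection and about 16 weeks old at collection. Sham vehicle and MI vehicle mice were injected weekly with vehicle. Sham prednisone and MI prednisone mice were injected into the peritoneum with 1 mg/kg prednisone, a synthetic glucocorticoid, once a week for 6 weeks at ZT0, when the lights came on. Injections began 2 weeks after surgery in all groups, and hearts were collected 24 hours after the final one. How the infarct was made, and whether the tissue came from scar, surviving wall or atrium, is not given in the sources used here.

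Potassium channels carry potassium out of the cardiomyocyte and so set its resting potential and end its action potential. Voltage-gated channels (*Kcna* to *Kcnd*, *Kcnh*, *Kcnq*) open on depolarization, inward rectifiers (*Kcnj*) hold the resting potential or answer to acetylcholine and to ATP, two-pore-domain channels (*Kcnk*) leak, and calcium-activated channels (*Kcnn*, *Kcnma*) open when calcium rises. Accessory subunits (*Kcne*, *Kcnab*, *Kcnip*) set how the pore subunits gate and reach the membrane. Loss of repolarizing potassium currents, above all the transient outward current, is a known feature of the remodelled ventricle after infarction.

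Values are TPM, a share of each library per unit of transcript length, so that levels of different genes can be compared, and the depth of the libraries is unknown. Cardiomyocyte markers summed to between 8649.8 and 15700.2 TPM. Mitochondrially encoded RNA took 21.6% to 42.0% of a library, nuclear copies of it 9.32% to 20.3%, and replicates correlated across genes at r = 0.891 to 0.987. MI vehicle replicate 3 stood apart: its T cell markers (*Cd3e*, *Cd3g* and *Cd3d*) summed to 184.9 TPM, against 0.386 to 9.91 TPM in the other 11 libraries. The atrial markers *Myl7*, *Sln* and *Myl4* were lowest in MI vehicle replicate 2 (*Myl7* 64.0 TPM) and highest in MI prednisone replicate 1 (1036 TPM). *Nppa*, the other atrial marker listed, was also highest there (4251 TPM). Its lowest value was in sham vehicle replicate 3 (478 TPM), and MI vehicle replicate 2 had 2840 TPM. Whether the share of atrial tissue differed between samples was not tested. The labels give no batch. In bulk tissue, fewer cells of a type and less RNA per cell cannot be told apart.

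Few of the 92 genes carried most of the channel RNA. Of them, 13 had a mean of at least 5 TPM over the 12 libraries, 13 lay between 1 and 5 TPM, and 66 lay under 1 TPM, of which 5 were listed at 0 in every library. *Kcng2*, *Kcnk3* and *Kcnj11* together took between 48.6% and 61.8% of all channel TPM in a library. *Kcng2*, which encodes a silent voltage-gated subunit that cannot conduct alone and assembles with conducting ones, had the highest mean at 87.4 TPM (range 40.5 to 119). This level needs care, since a transcript of 279 bases, *Kcng2-202*, made up 46.5% to 55.5% of it on average in the 4 groups. *Kcnk3*, a two-pore leak channel sensitive to acid, followed with a mean of 63.5 TPM (46.5 to 81.0). *Kcnj11*, the pore of the cardiomyocyte ATP-sensitive channel, had 49.2 TPM (33.2 to 63.7). *Kcng2* stood above *Kcnk3* in every library but MI prednisone replicate 2, where the values were 40.5 and 48.6 TPM.

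**Figure D1:**
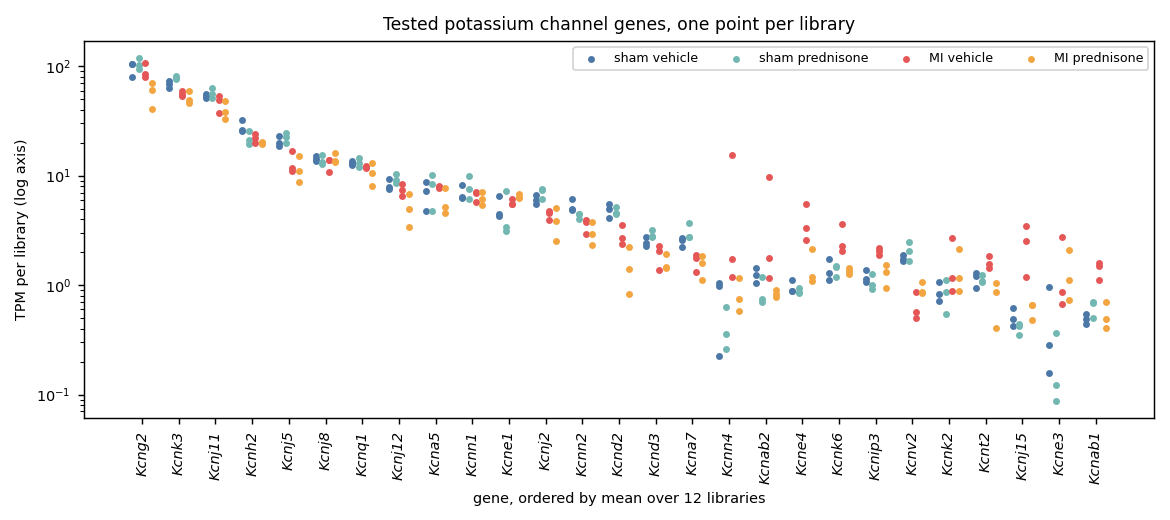
TPM (log axis) of 27 of the 30 tested potassium channel genes, ordered by their mean over the 12 libraries, with a point per library coloured by group. *Kcng2*, *Kcnk3* and *Kcnj11* lead with means of 87.4, 63.5 and 49.2 TPM, and the high points of *Kcnn4* (15.5 TPM) and *Kcnab2* (9.82 TPM) belong to MI vehicle replicate 3.

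Below these, *Kcnh2* (23.0 TPM), which carries the rapid delayed rectifier, and *Kcnj5* (16.95 TPM), a pore of the acetylcholine-activated channel, had ranges that overlapped (19.3 to 32.4 and 8.81 to 24.7 TPM). *Kcnh2* had the higher mean in 3 groups, and in sham prednisone *Kcnj5* did (22.4 against 22.0 TPM). *Kcnj8* (13.8 TPM), the ATP-sensitive pore best known from vessels, and *Kcnq1* (12.2 TPM), the slow delayed rectifier, also overlapped each other. The next members lay close together between 5 and 8 TPM, among them *Kcnj12* (7.51), *Kcna5* (7.10), *Kcnn1* (6.89), *Kcne1* (5.47) and *Kcnj2* (5.33), and the ranges of neighbours in this order overlapped. *Kcnd2* and *Kcnd3*, the pores of the fast transient outward current, had means of 3.49 and 2.23 TPM, and *Kcna4*, the pore of its slow form, had 0.251 to 0.566 TPM in every library. Sham vehicle, sham prednisone and MI vehicle hearts had 372.2 ± 27.0, 392.5 ± 30.1 and 350.1 ± 17.4 TPM of channel RNA in all (SD, n = 3 each). MI prednisone hearts had 270.5 ± 35.1 TPM, and their values (258, 244 and 310 TPM) lay below those of the other 9 libraries, the lowest of which had 332 TPM. In the same order of groups, the inward rectifiers alone summed to 104 ± 3.95, 111 ± 10.6, 88.9 ± 10.3 and 77.2 ± 12.8 TPM. The voltage-gated subunits summed to 170 ± 19.0, 176 ± 13.4, 156 ± 11.0 and 110 ± 19.5 TPM. Of these last sums, *Kcng2* alone held means of 96.1, 105.9, 90.2 and 57.5 TPM. All these sums are of deposited TPM and were not recomputed after the median-ratio rescaling described below. Its factor was 1.69 for MI vehicle replicate 3 and 0.889, 0.988 and 0.870 for the MI prednisone libraries. Of the 13 members with a mean of at least 5 TPM, 11 were lower in MI prednisone than in MI vehicle before it and 3 after it.

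Of the 92 genes, 30 reached 1 TPM in at least 3 libraries and were tested with limma on log2(TPM + 1) among 13158 genes. Log2 fold changes on this scale understate those of low genes, and a gene was called at a Benjamini-Hochberg adjusted p under 0.05. The p-values set a difference between group means against the spread between mice within groups, estimated over all libraries. The filter on low values was passed by *Kcnab1* and *Kcnj15* only through the 3 MI vehicle libraries, so these had to stand higher there, and by *Kcne3* only through 3 infarcted hearts, MI vehicle replicate 3 and MI prednisone replicates 2 and 3. The 30 tested genes comprised 11 of 40 voltage-gated subunits, 6 of 14 inward rectifiers, 3 of 14 two-pore channels, 4 of 12 calcium- or sodium-activated subunits and 6 of 11 accessory subunits.

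In vehicle-treated mice, *Kcnab1*, *Kcne4*, *Kcnj15* and *Kcnk6* were higher in infarcted hearts and *Kcnv2* was lower, while abundant pore genes such as *Kcnh2*, *Kcnj5* and *Kcnk3* had lower values that did not pass the test. Of the 30, 4 (13.3%) were thus called higher in MI, near the 15.1% of all tested genes, and 1 lower, against 0.904%. The median change of all genes was itself 0.39 on the log2 scale in this comparison, and that of the 30 was -0.08. Without MI vehicle replicate 3 the median of all genes was 0.193, and that of the 30 was not recomputed. Without overlap between the groups, 11 of the 30 were lower in MI, against 4.17% of all genes, and 7 were higher, against 40.8%. Among the 11 were *Kcna7*, *Kcnd2*, *Kcnd3*, *Kcnh2*, *Kcnj2*, *Kcnj5*, *Kcnk3*, *Kcnn2*, *Kcnq1* and *Kcnv2*. Of the 6 cardiomyocyte markers, 4 (*Myh6*, *Tnni3*, *Ryr2* and *Ttn*) were also lower in every MI vehicle heart than in any sham vehicle heart. Their sum was 8649.8 to 10972.3 TPM in MI vehicle and 13172.6 to 13654.7 TPM in sham vehicle, and its part in the lower channel values was not tested.

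**Figure D2:**
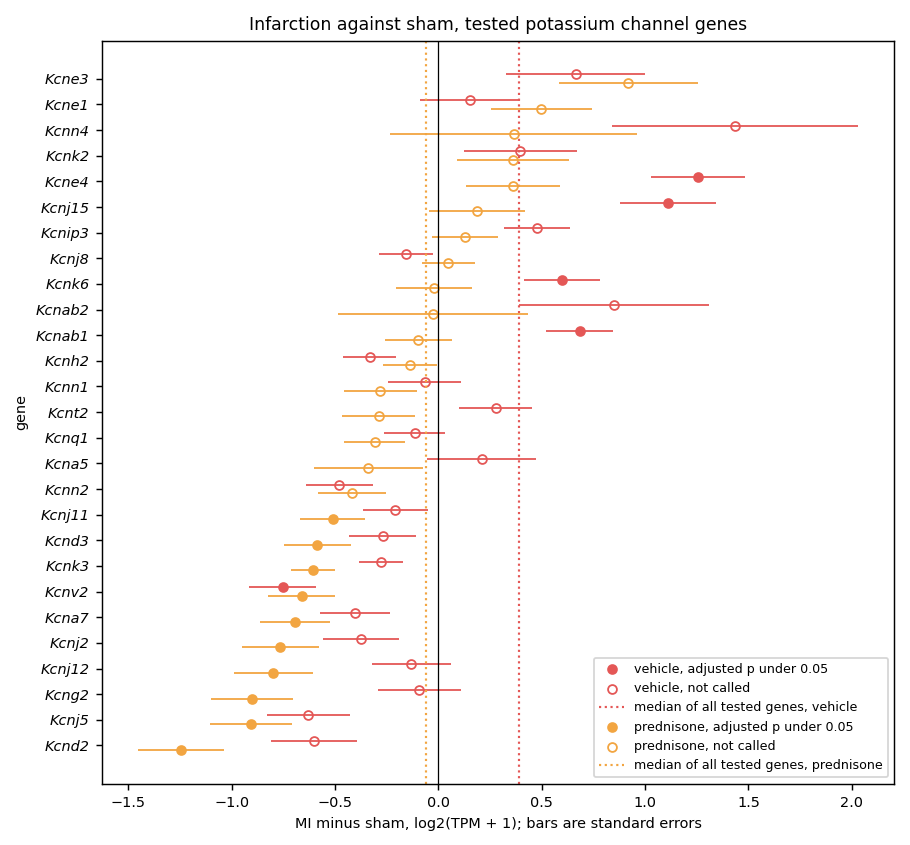
Log2(TPM + 1) difference between MI and sham hearts for 27 of the 30 tested genes under vehicle (red) and prednisone (orange), with standard errors as bars, filled points for calls and dotted lines at the median of all tested genes. Filled points mark 4 genes called higher and 1 lower under vehicle, and 10 of the 12 called lower under prednisone, with *Kcnd2* lowest at -1.25.

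*Kcnv2*, another silent voltage-gated subunit (chromosome 19, 27322588 to 27337179, mm10), had 1.88, 1.75 and 1.66 TPM in sham vehicle and 0.868, 0.568 and 0.503 TPM in MI vehicle. All 3 infarcted hearts lay below all 3 sham hearts, with a log2 fold change of -0.75 (SE 0.16, limma adjusted p = 0.018). *Kcnd2* (chromosome 6, 21215503 to 21729805) had 4.11, 5.54 and 4.92 TPM in sham vehicle and 3.57, 2.67 and 2.38 TPM in MI vehicle. Its groups did not overlap, and the log2 fold change of -0.60 (SE 0.21) missed the threshold (limma adjusted p = 0.0647). *Kcnj5* (chromosome 9, 32314707 to 32344350) had 20.0, 23.1 and 18.6 TPM against 16.7, 11.0 and 11.7 TPM, a log2 difference of -0.63 (SE 0.20, limma adjusted p = 0.053). *Kcnn2*, a small-conductance calcium-activated channel, had 5.00, 4.83 and 6.06 TPM against 3.89, 2.93 and 3.74 TPM (log2 difference -0.48, SE 0.16, limma adjusted p = 0.0625). For *Kcnd3* the values 2.30, 2.73 and 2.41 TPM in sham stood just above 2.29, 2.05 and 1.39 TPM in MI, and the difference of -0.27 (SE 0.16) was not called.

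How many pore genes passed as lower depended on the scale. After median-ratio rescaling, which sets the median change of all genes to about 0, 6 of the 30 were called lower in MI vehicle hearts, among them *Kcnh2*, *Kcnj5*, *Kcnk3*, *Kcnn2* and *Kcnv2*, against 3.22% of all genes, and 2 higher, *Kcne4* and *Kcnj15*, against 3.24%. After a correction for transcript length, 7 of 29 were lower, the same 6 with *Kcnd2*, against 2.66%, and 1 higher, *Kcnj15*, against 2.64%. Rescaled log2 fold changes were -1.05 for *Kcnj5*, -0.83 for *Kcnn2*, -0.77 for *Kcnh2* and -0.72 for *Kcnk3*. No member was called when only the 6 vehicle libraries were fitted, or without sham vehicle replicate 1 or replicate 3. Without MI vehicle replicate 1 the number was 11, and without MI vehicle replicate 2 it was 3. The median change of all genes was 0.505 and 0.452 in these 2 fits. What share of all genes they called was not counted, so these numbers are no result about the members.

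**Figure D3:**
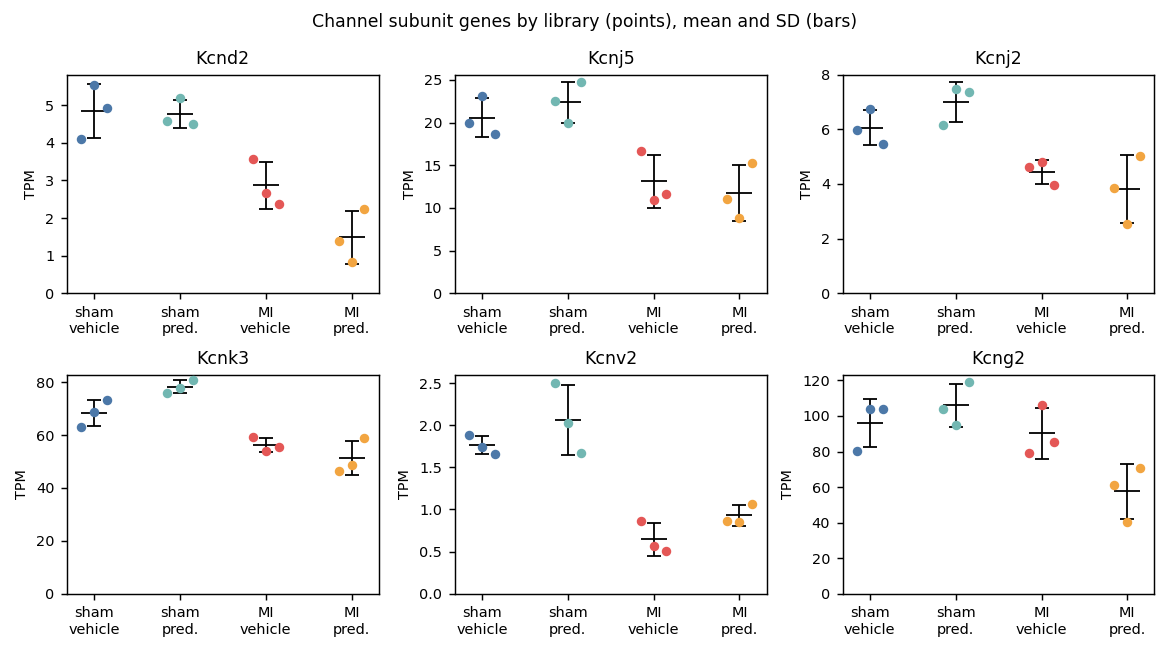
TPM of 6 channel subunit genes in the 4 groups, with a point per library, a long bar at the mean and short bars at 1 SD. *Kcnd2* falls from a mean of 4.75 TPM in sham prednisone to 1.49 TPM in MI prednisone, and *Kcnv2* is at or below 1.07 TPM in all 6 infarcted hearts.

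In prednisone-treated mice, infarcted hearts had lower levels of the transient outward pores *Kcnd2* and *Kcnd3*, of 4 of the 6 tested inward rectifiers (*Kcnj2*, *Kcnj5*, *Kcnj11* and *Kcnj12*), of the leak channel *Kcnk3* and of the silent subunits *Kcng2* and *Kcnv2*. Of the 30, 12 were called lower in MI, or 40.0%, against 14.1% of all tested genes, and 0 higher, against 2.73%. The median change of the 30 was -0.30 on the log2 scale, and that of all genes -0.06. Without overlap, 14 of 30 were lower, against 32.2% of all genes, and 4 higher, against 12.9%.

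Among the voltage-gated subunits, *Kcnd2* had the largest fall on the main scale, and *Kcng2* after the correction for transcript length. *Kcnd2* had 4.59, 5.18 and 4.49 TPM in sham prednisone and 1.40, 0.835 and 2.23 TPM in MI prednisone. Every infarcted heart was well below every sham heart, with means of 4.75 ± 0.37 and 1.49 ± 0.70 TPM (SD, n = 3 each) and a log2 fold change of -1.25 (SE 0.21, limma adjusted p = 0.00341). This call was lost in 1 of the 23 alternatives tried, the length correction together with the replicate block. Its partner pore *Kcnd3* (chromosome 3, 105452330 to 105674002) had 2.72, 2.81 and 3.21 TPM against 1.47, 1.44 and 1.93 TPM (log2 fold change -0.59, SE 0.16, limma adjusted p = 0.0307). *Kcng2* had 104, 94.8 and 119 TPM in sham prednisone and 61.2, 40.5 and 70.9 TPM in MI prednisone. The groups were apart, with a log2 fold change of -0.90 (SE 0.20, limma adjusted p = 0.0115), and the 2813-base transcript *Kcng2-201* alone had 37.7, 40.2 and 42.6 against 27.9, 25.2 and 31.0 TPM. *Kcnv2* fell from 2.07 ± 0.41 to 0.930 ± 0.12 TPM (-0.66). *Kcna7*, a minor voltage-gated pore, fell by 0.69 on the log2 scale. *Kcnh2*, *Kcnq1* and *Kcna5*, which carry delayed rectifier currents, were not called, with log2 differences of -0.14, -0.31 and -0.34.

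The promoters of *Kcnd2* and *Kcnj5*, which were lower in MI prednisone hearts, and of *Kcne4*, which was higher in MI vehicle hearts, are shown because these members represent the falls and the rises. Each is 300 bases from RefSeq (GRCm38.p6) on the gene's own strand, with searched motifs in capitals.
Kcnd2, chr6:21215096-21215395, plus strand: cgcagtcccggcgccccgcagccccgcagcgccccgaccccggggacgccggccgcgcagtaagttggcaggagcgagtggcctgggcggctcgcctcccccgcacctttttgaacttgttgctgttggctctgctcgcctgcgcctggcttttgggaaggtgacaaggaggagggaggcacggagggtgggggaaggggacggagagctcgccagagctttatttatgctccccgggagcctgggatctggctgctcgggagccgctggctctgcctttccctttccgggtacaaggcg
Kcnj5, chr9:32344295-32344594, minus strand: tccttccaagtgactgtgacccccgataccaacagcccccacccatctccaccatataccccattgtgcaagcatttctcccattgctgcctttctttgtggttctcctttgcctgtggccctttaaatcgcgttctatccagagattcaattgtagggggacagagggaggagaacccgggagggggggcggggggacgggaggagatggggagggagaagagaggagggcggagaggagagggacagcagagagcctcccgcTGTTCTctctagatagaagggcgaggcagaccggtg
Kcne4, chr1:78816661-78816960, plus strand: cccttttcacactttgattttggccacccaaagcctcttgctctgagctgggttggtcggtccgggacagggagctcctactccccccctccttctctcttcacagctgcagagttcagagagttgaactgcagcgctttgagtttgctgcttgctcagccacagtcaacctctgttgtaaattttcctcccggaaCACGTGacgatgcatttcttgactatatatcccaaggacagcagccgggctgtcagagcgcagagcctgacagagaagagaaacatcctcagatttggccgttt
The motifs, searched on both strands, were the glucocorticoid receptor hexamer TGTTCT, the E-box CACGTG of the clock activators and the D-box, TTATGTAA or TTACGTAA. The *Kcnd2* window held none of them and is rich in G and C (68.7%, with 26 CpG), the *Kcnj5* window held a hexamer, and the *Kcne4* window an E-box. Of the 93 promoters of the 68 members in the table, 18.28% held the hexamer, 7.53% the E-box and 0% the D-box, against 18.97%, 7.15% and 1.06% of 32851 promoters of all genes. A match of letters is a description and shows no binding.

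Among the inward rectifiers, *Kcnj5* had 22.5, 19.9 and 24.7 TPM in sham prednisone and 11.1, 8.81 and 15.3 TPM in MI prednisone. The groups did not overlap, and the log2 fold change was -0.91 (SE 0.20, limma adjusted p = 0.0112). *Kcnj2* (chromosome 11, 111066164 to 111076821) and *Kcnj12* (chromosome 11, 61022564 to 61071131) are the pores of the strong inward rectifier that sets the resting potential. *Kcnj2* had 6.15, 7.48 and 7.37 against 3.85, 2.54 and 5.03 TPM (log2 fold change -0.76, SE 0.18, limma adjusted p = 0.0172). *Kcnj12* had 8.53, 9.03 and 10.3 against 4.97, 3.41 and 6.79 TPM (-0.80, SE 0.19, limma adjusted p = 0.0161). Both were thus lower in all 3 infarcted hearts, with the lowest values in MI prednisone replicate 2. *Kcnj11* (chromosome 7, 46093953 to 46100764) was at 51.0, 55.9 and 63.7 against 38.2, 33.2 and 48.1 TPM (log2 fold change -0.51, limma adjusted p = 0.0468), a call that was lost in 19 of 23 alternatives. *Kcnj8*, the other ATP-sensitive pore, was not called, with 13.9 ± 1.41 and 14.4 ± 1.41 TPM (log2 difference 0.05, SE 0.13, limma adjusted p = 0.841).

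*Kcnk3* (chromosome 5, 30588170 to 30625271) had 75.9, 77.9 and 81.0 TPM in sham prednisone and 46.5, 48.6 and 58.8 TPM in MI prednisone, and the groups did not overlap (log2 fold change -0.61, SE 0.11, limma adjusted p = 0.0042). Of the calcium- and sodium-activated and the accessory subunits, none was called. *Kcnn2* had a log2 difference of -0.42 (limma adjusted p = 0.106), *Kcnn1* -0.28, and *Kcne1*, the partner of *Kcnq1*, 0.50 (limma adjusted p = 0.193). *Kcne3* passed as higher only after rescaling (log2 fold change 0.98, limma adjusted p = 0.0242), when 10.8% of all genes were called higher. Its values in MI prednisone were 0.730, 2.08 and 1.12 TPM, and since it entered the test only through infarcted hearts, its direction is no support.

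The length of the transcripts moved with these calls. The 12 lower members had a median length of 3969 bases, all tested members 2921 and all tested genes 2237. After the length correction 2 members were called lower, *Kcnd2* (log2 fold change -0.87) and *Kcng2* (-1.04), against 7.98% of all genes, and after rescaling 7 were, against 14.6%. With the replicate block 8 were called lower, and with the block and length correction 0. Leaving out sham prednisone replicate 1, 2 or 3 gave 7, 5 and 4 calls, and leaving out MI prednisone replicate 1 or 2 gave 4 each. For the block and for these fits the share of all genes called was not counted. *Kcnk3*, *Kcnd3*, *Kcnj11* and *Kcnj12* were among the members not called after rescaling. Leaving out any 1 library kept the calls of *Kcnd2* and *Kcnk3*. That of *Kcng2* was lost without sham prednisone replicate 3, and that of *Kcnj5* without this library or MI prednisone replicate 2. *Kcna7*, *Kcnd3*, *Kcnj2*, *Kcnj12* and *Kcnv2* lost theirs without 3 to 5 of the 6 prednisone libraries, one at a time, and *Kcnj11* also without some vehicle libraries. Of the cell markers, 3 of 6 for cardiomyocytes were lower in every MI prednisone heart than in any sham prednisone heart: *Myh6* (2178 to 2681 against 3031 to 3485 TPM), *Ryr2* (23.0 to 42.6 against 72.6 to 92.5 TPM) and *Ttn* (21.6 to 30.7 against 31.6 to 48.9 TPM). The cardiomyocyte sum, most of it *Tnnt2* and *Tnni3*, overlapped and ranged from 13392.9 to 15056.0 TPM in MI prednisone and from 13428.5 to 15700.2 TPM in sham prednisone, and the sum of the 4 atrial markers from 4335.0 to 6173.4 and from 1981.8 to 2686.2 TPM. Each of the 4 atrial markers was higher in all MI prednisone hearts than in any sham prednisone heart, and the part of these markers in the calls was not tested. The test of whether the MI difference itself changed with prednisone called none of these 12, so they are not shown to behave differently under vehicle. The nearest were *Kcng2* (interaction -0.81, limma adjusted p = 0.0609) and *Kcnj12* (-0.67, 0.094).

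The members that were higher in MI vehicle hearts were 2 accessory subunits, an inward rectifier and a two-pore channel. *Kcne4*, a single-span accessory subunit that inhibits several voltage-gated pores (chromosome 1, 78816758 to 78820028), had 0.884, 0.882 and 1.10 TPM in sham vehicle and 2.60, 5.48 and 3.34 TPM in MI vehicle. Every infarcted heart was higher, with a log2 fold change of 1.25 (SE 0.23, limma adjusted p = 0.0108). *Kcnj15*, an inward rectifier mostly known from kidney and other epithelia (chromosome 16, 95257558 to 95300260), had 0.623, 0.422 and 0.488 against 1.19, 2.55 and 3.44 TPM (log2 fold change 1.11, SE 0.23, limma adjusted p = 0.0164). *Kcnab1*, a cytosolic beta subunit of the Kcna channels (chromosome 3, 65109384 to 65378223), had 0.488, 0.547 and 0.444 against 1.51, 1.58 and 1.12 TPM (0.68, SE 0.16, limma adjusted p = 0.024). *Kcnk6*, a two-pore channel (chromosome 7, 29221926 to 29232515), had 1.29, 1.72 and 1.12 against 2.03, 2.30 and 3.59 TPM (0.60, SE 0.18, limma adjusted p = 0.0483), and was not called in 19 of 23 alternatives, among them without MI vehicle replicate 3 (0.42, limma adjusted p = 0.102). *Kcne4*, *Kcnj15* and *Kcnab1* were still called without that library (1.31, 0.89 and 0.77). Since *Kcnj15* and *Kcnab1* passed the filter on low values only through MI vehicle hearts, their direction is no support. *Kcne4* and *Kcnab1* were not called after the length correction (0.82 and 0.25), nor *Kcnab1* after rescaling (0.48) or with the replicate block (limma adjusted p = 0.0502). *Kcnab1* was also lost without MI vehicle replicate 2.

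Markers of some other cells were also higher in MI vehicle hearts, in a comparison where the median change of all genes was 0.39 on the log2 scale. The 5 fibroblast markers summed to 639, 735 and 694 TPM in MI vehicle, 308 to 399 TPM in sham vehicle and 227 to 389 TPM in MI prednisone. The endothelial markers summed to 163 to 222 TPM in MI vehicle and 127 to 141 TPM in sham vehicle, and the macrophage markers to 45.8 to 140 and 21.8 to 33.9 TPM. The 140 TPM was that of MI vehicle replicate 3, where *Ptprc* alone had 70.0 TPM. Apart from *Ptprc*, each macrophage marker (*Adgre1*, *Csf1r* and *Cd68*) was higher in every MI vehicle heart than in any sham vehicle heart. The smooth muscle sums (115 to 161 TPM in MI vehicle and 110 to 121 TPM in sham vehicle) overlapped. So did the pericyte sums (108 to 125 and 96.5 to 113 TPM). Defining markers such as *Col1a1*, *Pecam1* and *Csf1r* were above 0 in every library. Their part in the rises of *Kcne4*, *Kcnj15*, *Kcnab1* and *Kcnk6* was not tested.

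**Figure D4:**
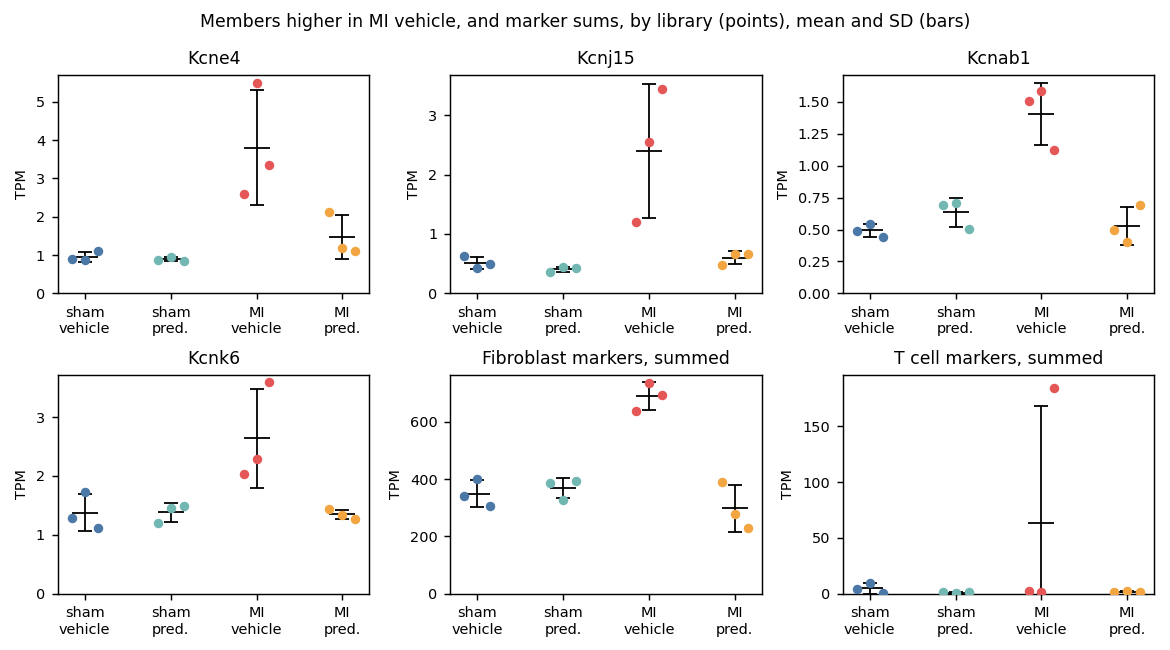
TPM of the 4 genes called higher in MI vehicle hearts and of the summed fibroblast and T cell markers, with a point per library, a long bar at the mean and short bars at 1 SD. The MI vehicle points of *Kcne4* (2.60 to 5.48 TPM) lie above the others, as do those of the fibroblast sum (639 to 735 TPM), and MI vehicle replicate 3 has a T cell sum of 184.9 TPM.

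The channel genes known from lymphocytes were high in 1 library. *Kcnn4*, the intermediate-conductance calcium-activated channel, had 1.18, 1.72 and 15.5 TPM in MI vehicle and 0.225 to 1.17 TPM in the other 9 libraries. *Kcna3*, the main voltage-gated channel of T cells, had 0.131, 0.105 and 6.79 TPM in MI vehicle and up to 0.808 TPM elsewhere. *Kcnab2*, a beta subunit, had 1.15, 1.78 and 9.82 TPM, and up to 1.44 TPM elsewhere. In each case the high value was that of MI vehicle replicate 3, the library with the T cell sum of 184.9 TPM and 70.0 TPM of *Ptprc*. The log2 differences between MI and sham were 1.44 (SE 0.60) for *Kcnn4* and 0.85 (SE 0.46) for *Kcnab2*, neither called, and without that library they were 0.51 and 0.13.

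In infarcted hearts, the 4 genes that had been called higher in MI vehicle hearts were called lower with prednisone, as were *Kcnd2*, *Kcng2* and *Kcnt2*. Of the 30, 7 were thus called lower, or 23.3%, against 34.9% of all tested genes, and 0 higher, against 2.50%. The median change of the 30 was -0.22 on the log2 scale and that of all genes -0.41. Without MI vehicle replicate 3 the median of all genes was -0.221, and that of the 30 was not recomputed. These libraries are the MI libraries of the comparisons above, so the values are not a separate set. *Kcnj15* had 1.19, 2.55 and 3.44 TPM with vehicle and 0.476, 0.663 and 0.658 TPM with prednisone (log2 fold change -1.03, SE 0.23, limma adjusted p = 0.00694). *Kcne4* had 2.60, 5.48 and 3.34 against 2.12, 1.17 and 1.09 TPM (-0.94, SE 0.23, limma adjusted p = 0.00907), and *Kcnab1* 1.51, 1.58 and 1.12 against 0.494, 0.402 and 0.695 TPM (-0.65, SE 0.16, limma adjusted p = 0.0108). In these 3 genes the groups were apart. *Kcnk6* fell from 2.64 ± 0.84 to 1.35 ± 0.08 TPM (log2 fold change -0.61). *Kcnt2*, a sodium-activated channel (chromosome 1, 140246158 to 140612067), had 1.44, 1.85 and 1.54 against 0.864, 1.04 and 0.406 TPM (-0.57, SE 0.18, limma adjusted p = 0.026), but 0.02 after the length correction. *Kcnd2* was lower again, by 0.66 on the log2 scale (limma adjusted p = 0.0283), and *Kcng2* by 0.67 (0.0237). The calls of *Kcnj15*, *Kcne4* and *Kcnab1* were kept whichever single library was left out. Since *Kcnj15* and *Kcnab1* passed the filter on low values only through the MI vehicle libraries, their falls and the stability of these are no support. *Kcnk6* lost its call without each of the 3 MI prednisone libraries in turn, *Kcng2* without MI vehicle replicate 2 or MI prednisone replicate 2, *Kcnd2* without MI vehicle replicate 1 or MI prednisone replicate 1 or 2, and *Kcnt2* without MI vehicle replicate 2 or MI prednisone replicate 1 or 3.

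Most of these calls were lost on other scales. After rescaling, *Kcnj15* alone was called lower (log2 fold change -0.74, limma adjusted p = 0.0115), against 13.8% of all genes, none was higher, against 14.3%, and 13 of the 30 had a value below 0 instead of 27 (of all genes, 51.6% instead of 82.1%). As *Kcnj15* entered the test only through MI vehicle hearts, its direction is no support. After the length correction none was lower, against 7.69%, and *Kcnv2* was higher (0.90, limma adjusted p = 0.0173), against 8.76%. No member was called when only the 6 MI libraries were fitted, and 4 were called without MI prednisone replicate 1 or replicate 2. The share of all genes called in these fits was not counted. For *Kcnab1* the MI difference itself was lower under prednisone than under vehicle, with an interaction of -0.78 (SE 0.23, limma adjusted p = 0.0365), when 20.7% of all genes were called with a negative and 0.540% with a positive interaction. As *Kcnab1* too entered the test only through MI vehicle hearts, this direction is no support. No other member had a called interaction. That of *Kcnab1* was lost after rescaling (-0.54), after the length correction (-0.24), with the block (limma adjusted p = 0.0605), and without any 1 of the 6 sham libraries, MI vehicle replicate 2 or MI prednisone replicates 1 and 2. After rescaling *Kcnh2* had a called interaction of 0.72 instead, when 4.29% of all genes had a called positive one.

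In sham hearts, prednisone was not accompanied by a called change in any of the 30, against 0.114% of all tested genes. Of the 13158 tested genes, 469 had an unadjusted p under 0.05 in limma, and of the 30 members 1 did. That was *Kcnh2* (chromosome 5, 24319589 to 24351604), with 25.8, 32.4 and 26.4 TPM under vehicle and 19.5, 21.1 and 25.3 TPM under prednisone (log2 difference -0.35, SE 0.13, limma unadjusted p = 0.0217, adjusted p = 1). *Kcnn2* had 5.00, 4.83 and 6.06 against 4.50, 4.43 and 3.98 TPM (-0.24). *Kcnk3* had 63.2, 68.5 and 73.3 against 75.9, 77.9 and 81.0 TPM (0.20), and *Kcna7* 2.21, 2.59 and 2.67 against 2.75, 2.75 and 3.68 TPM (0.21). These were the 4 members whose groups did not overlap, 2 lower, against 2.58% of all genes, and 2 higher, against 15.6%. *Kcnd2* was at 4.85 ± 0.72 and 4.75 ± 0.37 TPM (log2 difference -0.02, SE 0.21).

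Within *Kcnh2* the mix of transcripts differed in MI prednisone hearts, and a transcript of *Kcnj5* was low there. *Kcnh2-204*, a processed transcript of 741 bases with no annotated coding sequence whose 3' end lies 494 genomic bases from that of the gene, took 15.8% ± 1.5 of *Kcnh2* TPM in sham vehicle, 8.40% ± 1.1 in sham prednisone, 16.9% ± 6.0 in MI vehicle and 31.7% ± 1.5 in MI prednisone (SD, n = 3 each). *Kcnh2-201*, a coding transcript of 4221 bases, took 36.8%, 44.7%, 41.1% and 19.7%. *Kcnh2-202*, another coding transcript, of 3193 bases, took 35.6%, 37.0%, 32.7% and 40.9%. It had 8.20, 6.51 and 6.92 TPM in MI vehicle and 9.02, 8.64 and 6.54 TPM in MI prednisone. In TPM, *Kcnh2-201* had 9.002, 8.981 and 9.109 in MI vehicle and 2.81, 2.37 and 6.60 in MI prednisone, although the sum of the gene was close (22.1 ± 2.17 and 19.8 ± 0.44 TPM). *Kcnj5-202* had 0.110, 0.050 and 2.30 TPM in MI prednisone and 2.28 to 7.15 TPM in the other 9 libraries. For *Kcnh2-204*, *Kcnh2-201* and *Kcnj5-202*, MI prednisone replicate 3 was the nearest of its group to the other groups. *Kcnj5-201*, the most abundant *Kcnj5* transcript, had 15.9, 13.6 and 16.1 TPM in sham prednisone and 11.0, 8.76 and 12.2 TPM in MI prednisone. Fitted alone, it was lower but not called in MI against sham under prednisone. Beyond that fit, the part of these shares in the gene-level falls was not tested.

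**Figure D5:**
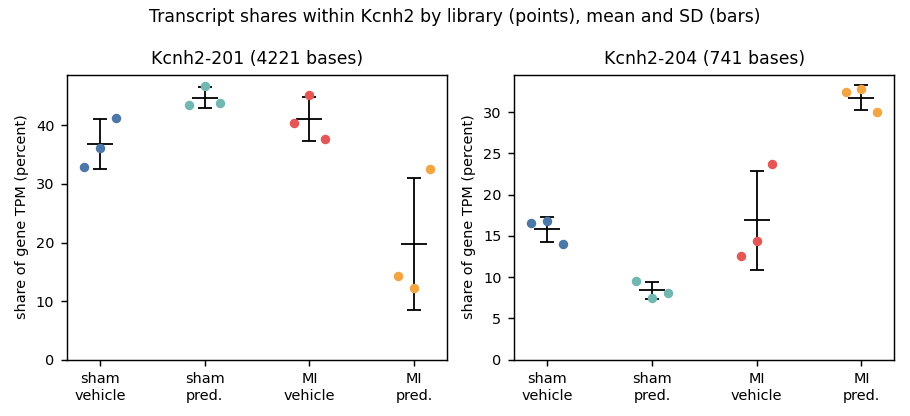
Share of gene TPM (percent) of a long coding and a short processed transcript of *Kcnh2*, with a point per library, a long bar at the mean and short bars at 1 SD. In MI prednisone *Kcnh2-204* averages 31.7% and *Kcnh2-201* 19.7%, above and below their averages in the other 3 groups. *Kcnh2-202*, another coding transcript, is not plotted and averages 40.9% in MI prednisone.

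Genes that work with the channels were followed from a list of 29, of which 24 were tested. In MI against sham under prednisone, 9 of the 24 were called lower, against 14.1% of all tested genes, and 1 higher, against 2.73%, and after the length correction 5 were lower, against 7.98%. In vehicle-treated mice 0 were lower, against 0.904%, and 1 higher, against 15.1%. *Abcc9*, the sulfonylurea receptor that pairs with *Kcnj11* and *Kcnj8* in ATP-sensitive channels, had 44.7, 45.9 and 40.0 TPM in sham prednisone and 13.8, 10.8 and 23.9 TPM in MI prednisone. No value overlapped, and the log2 fold change was -1.45 (SE 0.23, limma adjusted p = 0.00267), with -1.36 after rescaling and -0.98 after the length correction, both called. *Abcc8*, the receptor known from islets and atrium, was not called (0.16, limma adjusted p = 0.618). *Ank2* and *Dlg1*, which anchor channels at the membrane, fell by 1.11 and 0.85 on the log2 scale (limma adjusted p = 0.00546 and 0.0024). *Atp1b1*, a subunit of the sodium-potassium pump that restores the potassium gradient, fell by 0.75. The pump's regulator *Fxyd1*, phospholemman, was higher (599 ± 69.7 against 468 ± 38.8 TPM, log2 fold change 0.35, limma adjusted p = 0.045), but its log2 fold change was 0.08 after the length correction and not called. *Letm1*, *Slc12a7* and *Tmem38a* were also called lower. In MI, prednisone against vehicle gave 9 lower, near the 34.9% of all genes, and 1 higher, against 2.50%. After rescaling 5 were higher, against 14.3%, and 0 lower, against 13.8%, and after the length correction 4 and 0, against 8.76% and 7.69%. In sham hearts prednisone gave 0 calls, against 0.114% of all genes.

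The 62 members that were not tested were close to the bottom of the scale, 51 of them never reaching 1 TPM. Their highest value lay in MI vehicle replicate 3 for 19 and in MI prednisone replicate 2 for 10. In those libraries 37 and 29 members reached 1 TPM, against 22 to 27 in the other 10. Of all genes, 14307 and 12772 reached 1 TPM there, also the most of any library, against 11690 to 12620 in the other 10. How many of all genes had their highest value there was not counted. *Kcnmb2*, a beta subunit of the large-conductance calcium-activated channel, had 2.01 and 1.28 TPM there and at most 0.490 TPM elsewhere. *Kcnk1*, a two-pore channel, had 1.15 and 1.71 TPM and at most 0.384 TPM elsewhere, and *Kcnj13*, an epithelial inward rectifier, 0.785 and 2.10 TPM and at most 0.124 TPM. *Lrrc26*, a gamma subunit of the large-conductance channel, followed with 3.67 and 4.58 TPM and at most 0.390 TPM elsewhere. The pore of that channel, *Kcnma1*, stayed under 1 TPM in every library (0.048 to 0.994). *Kcnmb1*, its smooth muscle beta subunit, had 0.328 to 1.22 TPM.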

How the data were processed

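The authors deposited transcript-level TPM for 12 libraries, each column of which sums to 1000000. Per the submitters' processing notes, Trimmomatic, HISAT2, kallisto and mm10 were used, and their roles and versions are not given in the sources used here. Per the labels' protocols, RNA was extracted with Trizol and RNeasy columns, and stranded mRNA libraries were made. Samples were grouped by title.

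Transcripts were summed to genes, genes reaching 1 TPM in 3 or more libraries were kept, and the deposited TPM were transformed to log2(TPM + 1) with a pseudocount of 1. limma 3.58.1 (R 4.3.3) was fitted with a mean per group, a spread shared over all libraries and an intensity trend, with Benjamini-Hochberg adjustment over 13158 genes, and was tested on simulated data. TPM is a share and carries no depth, so precision rests on 3 mice per group. The rule for genes named took members with a mean of at least 5 TPM, members called, the 3 largest changes per comparison and 20 fixed genes. Lrrc26, Kcnip3 and low members outside that rule were chosen after their values were seen. Some members and partners that enter the counts are not reported by name here. Members, marker lists and partner lists were chosen with earlier results of these data known. The length correction subtracted a loess curve (span 0.5) on log10 transcript length from each library. Coordinates and lengths come from GENCODE M21 (GRCm38), where 77 members had transcripts. The alternatives are those of the closing section.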

Additional observations from a re-analysis of the deposited data

Results flagged for a closer look

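*Kcnab1* is listed here because its difference between MI and sham hearts was not the same under the 2 treatments by a test of that difference itself: the interaction was -0.78 on the log2 scale (SE 0.23, limma adjusted p = 0.0365). The gene was higher in MI under vehicle (log2 fold change 0.68) and not called under prednisone (-0.10). The interaction was lost in 14 of the 21 alternatives run for it, and its cause was not tested. *Kcnab1* passed the filter on low values only through the 3 MI vehicle libraries, which favours a negative interaction, so its direction is no support.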

How the results depend on the processing

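Of 25 called results for single members, all 25 were still called with a pseudocount of 0.1, 24 without the trend, 21 without the filter, 20 with mitochondrial, nuclear copy and globin rows removed, 11 after median-ratio rescaling, 11 when only the groups compared were fitted (a fit not made for the interaction) and 4 after the length correction. For the most abundant transcript alone, 15 were called and 3 not, and 7 could not be tested. *Kcnt2* in prednisone against vehicle, MI, turned from -0.57 to 0.0198 with the length correction, with or without the block. In MI against sham under vehicle, the count of 5 members became 8 after rescaling, 0 with only the groups compared, 3 with the replicate block, 8 with the length correction and 1 with both. In MI against sham under prednisone, the count of 12 became 2 with the length correction and 0 with that and the replicate block. In prednisone against vehicle in MI, the count of 7 became 1 after rescaling, 0 with only the groups compared, 1 with the length correction, 1 with that and the replicate block, and 4 without MI vehicle replicate 3 and MI prednisone replicate 2, a pair left out after seeing the data. For the interaction, the count of 1 became 2 without the filter, 2 without the trend, and 0 with the rows removed, the replicate block, the length correction or the last 2 together. Leaving out 1 mouse at a time gave 0 to 11, 4 to 13, 4 to 8 and 0 to 5 calls in these 4 comparisons, and 0 for prednisone in sham hearts. The share of all genes called was counted only for the main fit, the rescaling and the length correction. For the interaction, 5 were called without MI vehicle replicate 1 or MI prednisone replicate 3, and 0 without any sham library, MI vehicle replicate 2, or MI prednisone replicates 1 and 2. The cause of these changes was not tested. The replicate numbers belong to different mice and did not pair them: same-numbered libraries deviated from their group means with mean r of -0.373 to 0.003. Under the replicate block 8 and 6 members were called in MI against sham under prednisone and in prednisone against vehicle in MI. Depth is unknown, so members listed near 0 cannot be called absent.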

Other observations

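*Kcnip3*, a calcium-binding accessory subunit, had 1.37, 1.13 and 1.06 TPM in sham vehicle and 1.89, 2.07 and 2.17 TPM in MI vehicle. The groups did not overlap, and the log2 difference of 0.48 (SE 0.16) missed the threshold (limma adjusted p = 0.0597). In MI prednisone it had 1.53, 1.33 and 0.943 TPM.

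*Kcnrg*, a soluble regulator of voltage-gated channels, had 3.60 TPM in MI vehicle replicate 3 and 3.85 TPM in MI prednisone replicate 2, and 0.088 to 0.582 TPM in the other 10 libraries. *Kcnj14*, an inward rectifier, had 0.990, 1.53 and 0.804 TPM in MI vehicle and 0.239 to 0.805 TPM in sham hearts.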
